A study of Mus musculus with 2 samples.

Results

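Regulatory T cells (Tregs) were taken from single-cell RNA of the optic nerve of Nf1-OPG mice as T cell barcodes with Foxp3 RNA. Members were selected on measured values. Each had at least 2 UMIs (unique molecular identifiers, which count captured RNA molecules) summed over Cd3d, Cd3e and Cd3g, at least 1 Foxp3 UMI, no Cd8a or Cd8b1 UMI and no Cd79a or Csf1r UMI. Barcodes under 500 UMIs or 200 genes, or above 20% mitochondrial RNA, were dropped first. This gave 642 Tregs of 19834 kept barcodes, 518 of 15726 in the vancomycin library and 124 of 4108 in the control library. Nf1-OPG mice carry a germline mutant Nf1 allele (Nf1flox/neo, the neo allele with a neomycin cassette), and GFAP-Cre removes Nf1 from neuroglial progenitors, so their T cells are heterozygous for Nf1 in both groups. Mice received vancomycin from 6 to 12 weeks of age or were labelled control, for which the series design names PBS. Tissue of 10 mice aged 12 weeks was pooled for each library, so each group was 1 library. The protocols also describe sorted cells of the meningeal dura, while both libraries carry optic nerve as their tissue label.

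Tregs are CD4 T cells that hold other immune cells in check, and the transcription factor Foxp3 sets their identity. They take up IL-2 through a receptor whose high-affinity chain is Il2ra, block costimulation with Ctla4, and release or activate suppressive cytokines such as IL-10 and TGF-beta. In non-lymphoid tissue, Tregs are known to carry an activated programme with TNF receptors, integrins and the repair factor Areg.

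Tregs had a median of 3601 UMIs and 1677 genes in the vancomycin library and 4487.5 UMIs and 1965 genes in the control library. Their summed UMIs were 2816821 and 701187. Other classes that passed the same T cell gate were conventional CD4 T cells, with a Cd4 UMI and no Foxp3 or CD8 UMI (1053 and 502), and CD8 T cells, with a CD8 UMI and no Foxp3 or Cd4 UMI (1510 and 865). The libraries shared 100 barcode sequences, 2.34% of the control's. They were made with Cell Ranger 7.2.0 (vancomycin) and 6.0.1 (control), and the version and the group cannot be told apart. The female-specific RNA Xist stood at 55.0 CPM (UMIs of the gene per 1000000 UMIs) in vancomycin Tregs and 466 CPM in control Tregs. The part of this difference in the results was not tested. Myelin RNA was spread through the vancomycin library, though unevenly: the 10 oligodendrocyte markers summed to 10219 CPM in its Tregs and 183 CPM in control Tregs, and to 11668 and 228 CPM in conventional CD4 T cells. A UMI of these markers was in 85.3% of vancomycin and 51.6% of control Tregs. Of the vancomycin Treg UMIs of these markers, 30.2% came from 5 cells. More than 1% of UMIs came from markers of other cell types in 71 vancomycin Tregs (13.7%) and 2 control Tregs (1.61%). Results that rest on these barcodes are given with and without them, a setting chosen after seeing the data.

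The cells carried the marker set of their name in both libraries. Foxp3, which chose the cells, stood at 454 CPM in vancomycin and 660 CPM in control Tregs. Ctla4, the inhibitory receptor that binds CD80 and CD86, was at 2007 and 3732 CPM in Tregs, 936 and 1019 CPM in conventional CD4 T cells and 307 and 274 CPM in CD8 T cells. Ikzf2, which encodes the transcription factor Helios, was at 777 and 867 CPM in Tregs against 186 and 141 CPM in conventional CD4 T cells. Il2ra was at 284 and 529 CPM against 37.0 and 69.2 CPM. Tnfrsf4, which encodes the TNF receptor OX40, was at 1596 and 1794 CPM against 703 and 650 CPM. The gene positions are (GRCm38, GENCODE M21) chrX:7573644-7595245 for Foxp3, chr1:60887000-60915832 for Ctla4, chr1:69531214-69687245 for Ikzf2, chr2:11642807-11693193 for Il2ra and chr4:156013843-156016612 for Tnfrsf4, all protein coding. For Ctla4, Ikzf2, Il2ra and Tnfrsf4 both Treg sums lay above both sums of the other classes.

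**Figure D1:**
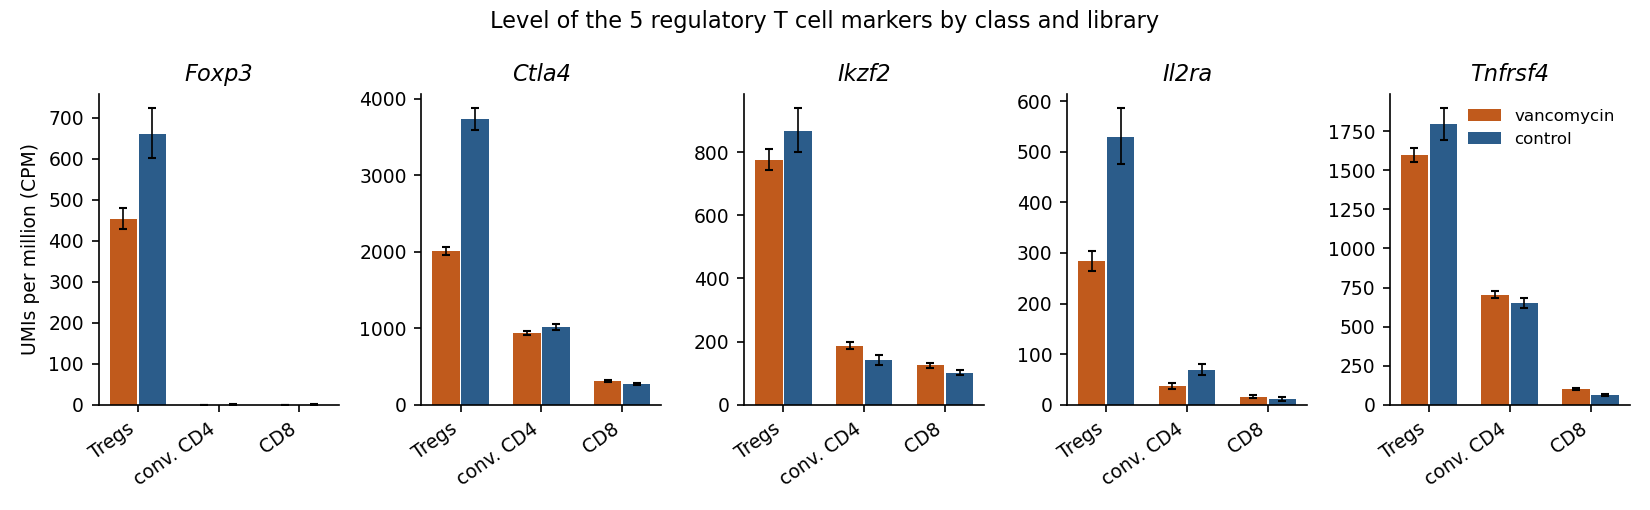
Level of the 5 markers in CPM in Tregs, conventional CD4 and CD8 T cells of the vancomycin (orange) and control (blue) library. Bars are sums over cells and lines are 95% Poisson intervals for counting error. The Treg bars of Ctla4, Ikzf2, Il2ra and Tnfrsf4 are the highest of each panel, and Foxp3 is 0 in the other classes by the rule.

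Foxp3 was sparse, and the rule rested on few UMIs. Exactly 1 Foxp3 UMI was found in 207 vancomycin Tregs (40.0%) and 31 control Tregs (25%), and a Cd4 UMI in 276 of 518 and 84 of 124. Ctla4 in Tregs with 1 Foxp3 UMI was at 1845 CPM in the vancomycin and 2962 CPM in the control library, above the conventional CD4 level of each library. Among Csf1r-positive myeloid barcodes without a CD3 UMI, 17 of 2306 in the vancomycin library (0.737%, median 7098 UMIs) and 12 of 1279 in the control library (0.938%, median 4757 UMIs) held a Foxp3 UMI. Just inside the CD3 threshold, with a sum of 2, were 6 vancomycin and 4 control Tregs, with Ctla4 at 1806 and 5444 CPM. Just outside it, with a sum of 1, were 4 and 2 barcodes, at 1112 and 4670 CPM. A Treg with a Cd4 UMI in which no Foxp3 UMI was captured falls among the conventional CD4 T cells by the rule. One with neither UMI falls in none of the classes.

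Tregs made up a larger share of T cells in the vancomycin library. They were 12.96% of 3997 gated T cells (exact binomial interval 11.9 to 14.0) against 6.85% of 1811 in the control library (5.73 to 8.11). Per conventional CD4 T cell there were 0.492 Tregs (0.442 to 0.547) in the vancomycin library and 0.247 (0.201 to 0.301) in the control. The rule asks for a Cd4 UMI in conventional CD4 T cells but not in Tregs, of which 53.3% and 67.7% held one. With a Cd4 UMI required of both classes, the ratios were 0.262 (0.229 to 0.300) and 0.167 (0.131 to 0.211). The number of CD8 T cells per Treg was 2.92 (2.64 to 3.23) against 6.98 (5.77 to 8.49). With each cell thinned to 1000 UMIs, which left out 31 and 64 shallower T cells, the shares were 7.09% (6.22 to 8.03) and 3.64% (2.72 to 4.75). With at least 2 Foxp3 UMIs they were 7.78% and 5.14%, and with a Cd4 UMI required 6.91% and 4.64%. Foxp3 RNA over all gated T cells was at 65.8 against 57.8 CPM, a ratio of 1.14 (1.03 to 1.25), and the ratio was 1.96 (1.51 to 2.56) in thinned cells. Since each group is 1 library, no test could be made. All intervals cover counting error only, so these shares compare 2 libraries. As a share of all kept barcodes, which the nerve and myelin preparation can set, Tregs were 3.29% (3.02 to 3.58) and 3.02% (2.52 to 3.59), and these intervals overlap.

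**Figure D2:**
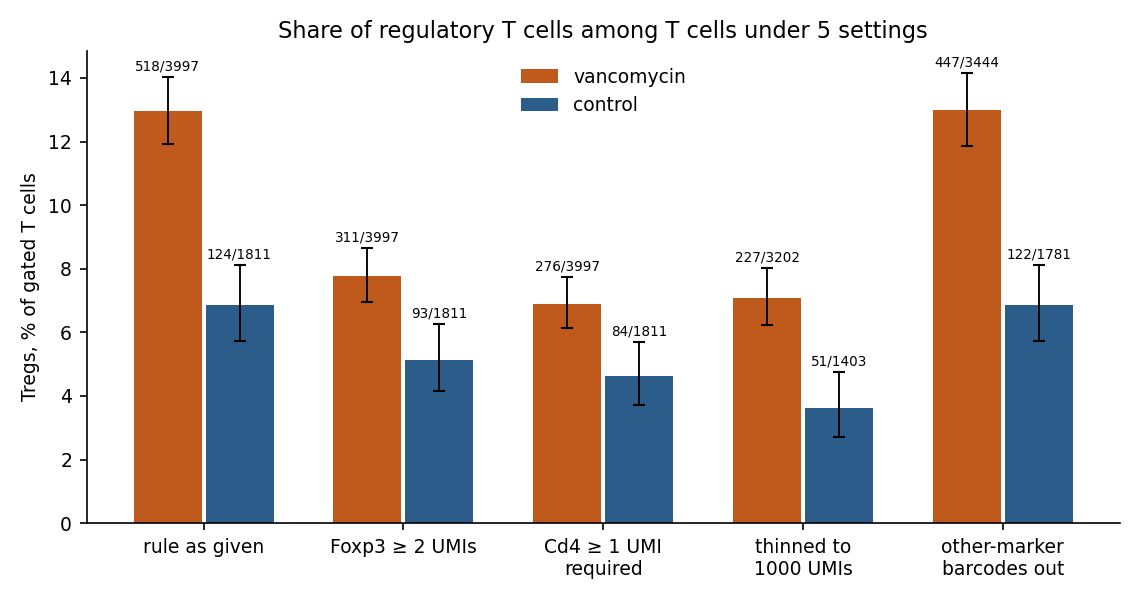
Tregs as a percentage of gated T cells in the vancomycin (orange) and control (blue) library under the rule as given and 4 other settings. Lines are 95% exact binomial intervals and labels give Tregs over T cells. The vancomycin bar is the higher in each setting shown, from 12.96% against 6.85% to 6.91% against 4.64%.

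Tregs were then compared with conventional CD4 T cells of the same libraries, which asks what sets them apart from that class in this tissue. UMIs were summed per class and library and fitted with edgeR's quasi-likelihood test with library as a block, over the 6 sums of 3 classes and 2 libraries. Of 13013 genes tested, 140 were higher in Tregs (1.08%) and 177 were lower (1.36%) at a Benjamini-Hochberg adjusted p under 0.05. With the block, the p-values rest on how far class differences varied between the 2 libraries, over all 3 classes. This left 2 residual degrees of freedom per gene, and a further 5.96 were borrowed from the other genes. Leaving the block out of the fit gave 0 calls, with 420 genes at an unadjusted p under 0.05, against 1612 with the block. Without the barcodes carrying markers of other cell types, 290 of 11892 genes tested were higher and 371 lower, among them 140 and 173 of the calls above.

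Identity genes were higher in Tregs as a group. Of 19 tested members of the Treg identity list, 14 rose and 0 fell, against 1.08% and 1.36% of all genes tested. The median log2 fold change was 1.39 for the list against -0.05 over all genes tested. The list holds the markers named in the cell label and was chosen with results of these data known. Il2ra was higher in Tregs by 2.82 ± 0.28 (log2 fold change ± SE, edgeR adjusted p = 0.00259), Ikzf2 by 2.22 ± 0.14 (adjusted p = 0.000475), Ctla4 by 1.39 ± 0.21 (adjusted p = 0.0142) and Tnfrsf4 by 1.21 ± 0.18 (adjusted p = 0.0131). Tnfrsf9, which encodes the costimulatory TNF receptor 4-1BB, was at 645 and 871 CPM in vancomycin and control Tregs against 84 and 74.2 CPM in conventional CD4 T cells. Itgae, the integrin chain that binds E-cadherin, was at 299 and 482 CPM against 45.0 and 37.3 CPM. The plain ratio of Tregs over conventional CD4 T cells was 7.67 and 11.7 for Tnfrsf9 and 6.64 and 12.9 for Itgae in the vancomycin and control library. Lrrc32, which encodes GARP, the surface carrier of latent TGF-beta, was higher by 3.28 ± 0.37 (edgeR adjusted p = 0.00495).

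**Figure D3:**
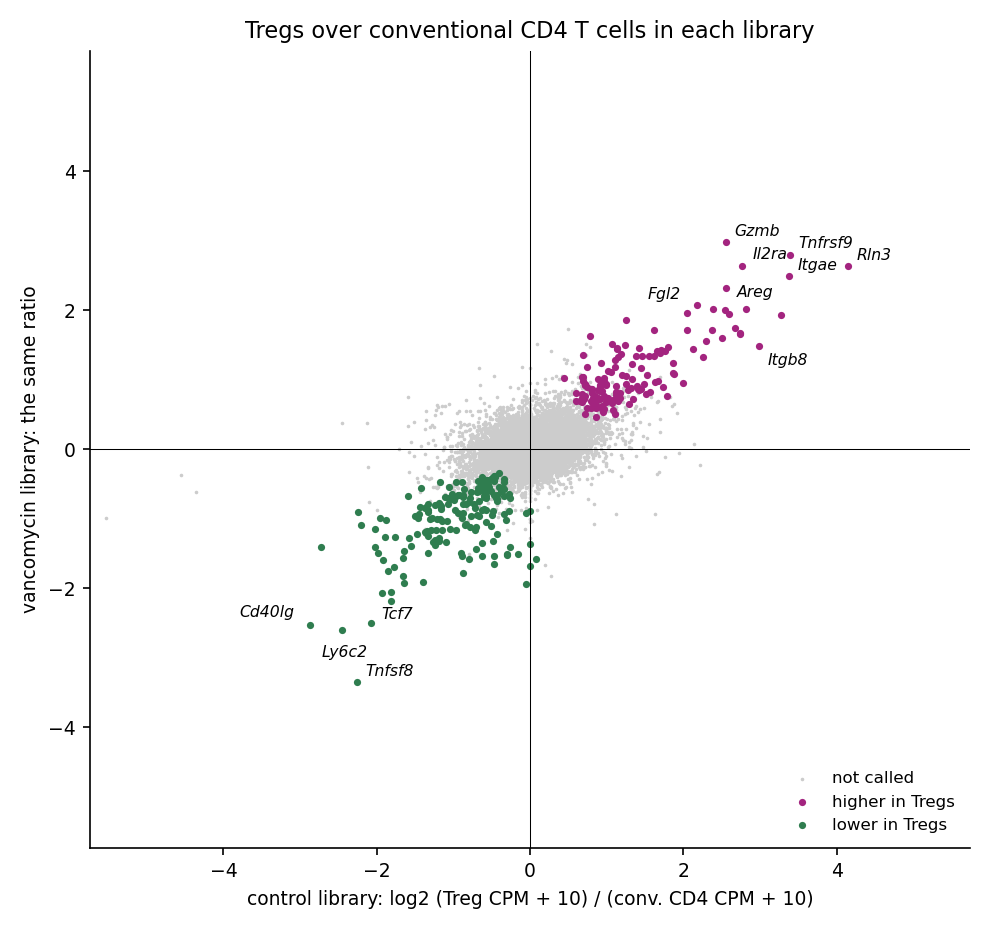
Log2 ratio of Tregs over conventional CD4 T cells, after adding 10 CPM to both, in the control (x) and the vancomycin library (y), 1 point per gene tested. The 140 genes called higher in Tregs are purple and the 177 called lower are green. Rln3, Gzmb, Tnfrsf9 and Itgae lie far up in both libraries, and Tnfsf8 and Cd40lg far down.

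The genes of suppression split into a part that rose and a part that did not pass the test. Of 20 tested, 9 rose and 1 fell (1.08% and 1.36% of all genes tested), with a median of 0.75. Ctla4 and Lrrc32, among those that rose, were also counted in the identity list. Gzmb, which encodes the cytotoxic protease granzyme B, was at 231 and 218 CPM in vancomycin and control Tregs against 20.6 and 28.7 CPM in conventional CD4 T cells (3.15 ± 0.18, edgeR adjusted p = 0.000465). It was not particular to Tregs: in the vancomycin library a Gzmb UMI was in 22.6% of Tregs and 20.1% of CD8 T cells. Areg, the growth factor amphiregulin, was at 228 and 181 CPM against 37.8 and 22.5 CPM (2.65 ± 0.18, edgeR adjusted p = 0.000475). Fgl2, a secreted suppressive factor, was higher by 2.14 ± 0.12 (adjusted p = 0.000339). Itgb8, whose integrin activates latent TGF-beta, was higher by 2.33 ± 0.46 (adjusted p = 0.0451), at 3.13 times the conventional CD4 level in the vancomycin and 11.3 times in the control library. Il10 was at 146 and 75.6 CPM against 55.5 and 35 CPM (1.2 ± 0.16, edgeR adjusted p = 0.00904). The ectoenzyme genes Entpd1 and Nt5e, which turn extracellular ATP into adenosine, rose by 0.88 and 0.68 (adjusted p = 0.0203 and 0.0470). Furin, a protease that matures TGF-beta, fell by 1.23. Tgfb1 itself, at 208 and 970 CPM, did not pass the test (log2 fold change 0.42, adjusted p = 0.170).

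The tissue programme was present in part. Of 24 tested genes of the tissue Treg list, 7 rose and 2 fell: Areg, Klrg1, Nfil3, Tnfrsf9, Itgae, Ccr2 and Itgav rose, and Bhlhe40 and Cxcr6 fell. The shares over all genes tested were 1.08% and 1.36%. Some of these calls were counted above: Tnfrsf9 and Itgae are also in the identity list and Areg in the suppression list. Itgav, the partner chain of Itgb8, was at 419 and 572 CPM in vancomycin and control Tregs against 101 and 86.2 CPM. Il1rl1, which encodes the IL-33 receptor ST2, was at 29.5 and 59.9 CPM against 7.95 and 18.6 CPM, plain ratios of 3.71 and 3.21, and did not pass the test (adjusted p = 0.194). The transcription factor gene Gata3, at 79.2 and 75.6 CPM against 55.1 and 76.1 CPM, did not pass it either (adjusted p = 0.776). Of 12 tested genes of central or naive T cells, 0 rose and 6 fell, with a median of -1.05. Among them were Tcf7, a transcription factor of naive and memory T cells (35.5 and 48.5 CPM in Tregs against 247 and 237 CPM), the survival gene Bcl2 (55.0 and 57.0 against 169 and 200 CPM) and the egress receptor S1pr1 (12.8 and 75.6 against 40.8 and 199 CPM).

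Genes that Foxp3 is known to hold down in Tregs were lower as a group. Of 13 tested, 10 fell and 0 rose (1.36% and 1.08% of all genes tested), with a median of -1.53. Cd40lg, the ligand by which helper T cells license B cells and dendritic cells, was at 26.6 and 29.9 CPM in Tregs against 201 and 281 CPM in conventional CD4 T cells (-3.12 ± 0.15, edgeR adjusted p = 0.000256). Tnfsf8, the CD30 ligand gene, was at 20.6 and 52.8 CPM against 302 and 290 CPM (-3.46 ± 0.42, edgeR adjusted p = 0.00611). Ifng was at 83.1 and 18.5 CPM against 164 and 125 CPM, and 72.2% of the vancomycin UMIs of Ifng in Tregs came from 5 cells. Its call (adjusted p = 0.0448) was lost with a Cd4 UMI required (adjusted p = 0.119) and without doublet-scored cells (adjusted p = 0.0533). Il17a had 0 UMIs in the Tregs of both libraries, which allows up to 1.07 and 4.28 CPM. The conventional CD4 level of Il17a, 11.4 and 36.1 CPM, came from 2 of 1053 and 3 of 502 cells, with 60 of 63 and 84 of 93 UMIs in a single cell, so its call rests on those cells.

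Ccr9 and Itgb7, genes linked to homing to the gut, were called higher in Tregs, though neither call held in thinned cells. Ccr9, the receptor for the intestinal chemokine CCL25, was at 122 and 57.0 CPM against 26.6 and 18.3 CPM (1.96 ± 0.32, edgeR adjusted p = 0.0198). Itgb7, a chain of the gut-homing integrin, was at 305 and 482 CPM against 163 and 270 CPM (log2 fold change 0.76, adjusted p = 0.0125). Over the 12 tested genes of the gut-linked Treg list, 4 rose (Ccr9, Itgb7, Ikzf2 and Il10) and 1 fell (Il17a). The shares over all genes tested were 1.08% and 1.36%. Ikzf2 was also counted in the identity list and Il10 in the suppression list. Thinning each cell to 1000 UMIs ended the calls of Ccr9 (log2 fold change 0.59, adjusted p = 0.657) and Itgb7 (0.66, adjusted p = 0.134). It also ended those of Il10 (0.83, adjusted p = 0.195), Entpd1 (0.71, adjusted p = 0.458), Furin (-1.25, adjusted p = 0.294) and S1pr1 (-1.17, adjusted p = 0.298). The calls of Nt5e (0.25, adjusted p = 0.867), Klrg1 (1.5, adjusted p = 0.463) and Klf2 (-0.46, adjusted p = 0.811) were lost too. Fold changes of Itgb7, Entpd1 and Furin stayed near those before thinning, and that of Ccr9 did not. In the homing list as a whole, 5 of 23 rose and 4 fell, the integrin chain gene Itgb1 among the latter (-1.79, adjusted p = 0.000475).

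IL-2, TNF receptor and costimulation genes moved in single members. Of 18 tested IL-2 pathway genes, Il2ra and the kinase gene Pim1 rose and Il2 and Bcl2 fell. The shares called over all genes tested were 1.08% higher and 1.36% lower. Il2 had only 5 and 2 UMIs in vancomycin and control Tregs. In conventional CD4 T cells 60 of its 121 vancomycin UMIs came from a single cell, and its 28 control UMIs from 23 cells. Il2 was also counted among the lower genes that Foxp3 is known to hold down. The shared receptor chains Il2rb and Il2rg were at 616 and 452 CPM with vancomycin and 1062 and 749 CPM in the control, and did not pass the test (adjusted p = 0.0695 for Il2rb, and above 0.05 for Il2rg). Of 17 TNF receptor and NF-kappaB genes, 3 rose and 0 fell: Tnfrsf4, Tnfrsf18 and Tnfrsf9. Without the barcodes carrying other markers, the IL-2 list had 4 higher and 4 lower and the TNF receptor list 5 higher and 1 lower. Of 20 TGF-beta pathway genes, 4 rose (Tgfbr1, Itgb8, Itgav and Lrrc32) and 3 fell, among them Tgfbr2. Proliferation genes showed 1 of 17 higher, Mcm6 (0.53, adjusted p = 0.0498), which was lost under the looser CD3 threshold (adjusted p = 0.0513) and the stricter cell filter (adjusted p = 0.0518).

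Among called genes with at least 50 CPM in the higher class of both libraries, the 10 with the highest fold change in Tregs were Rln3, Gzmb, Tnfrsf9, Itgae, Il2ra, Neb, Slc16a3, Sdc4, Areg and Ikzf4. Rln3, which encodes the peptide hormone relaxin-3, led with 181 and 208 CPM in vancomycin and control Tregs against 20.8 and 2.33 CPM in conventional CD4 T cells (3.81 ± 0.44, edgeR adjusted p = 0.00548). Rln3 UMIs were found in 157 of 518 and 34 of 124 Tregs, against 62 of 1053 and 4 of 502 conventional CD4 T cells and 1 of 2306 and 1 of 1279 Csf1r-positive barcodes. Neb, a giant muscle filament gene, was at 112 and 151 CPM against 20.1 and 12.8 CPM, and Slc16a3, a lactate exporter gene, at 54.7 and 145 CPM against 10.5 and 13.2 CPM. Under the same limit the 10 lowest were Tnfsf8, Ly6c2, Cd40lg, Nsg2, Tcf7, Bcl2a1a, Tbc1d4, Fasl, Pde3b and Gm2682. Ly6c2, an effector surface antigen gene, was at 12.4 and 35.7 CPM against 126 and 239 CPM, a call lost on thinning (log2 fold change -1.03, adjusted p = 0.514).

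Promoter sequence was read from RefSeq (build GRCm38.p6) as the 250 bases before each annotated start, and searched on both strands for the forkhead motif TGTTTAC, the AP-1 motif TGANTCA and the ETS motif CCGGAAG. Windows were found for 110 of the 140 higher genes and 127 of the 177 lower genes. The forkhead letters were in 2.14% of 140 windows of higher genes, 3.45% of 174 windows of lower genes and 2.17% of 12792 windows of tested genes. The AP-1 letters were in 7.86%, 6.32% and 4.26%, and the ETS letters in 4.29%, 5.75% and 13.3%. Of all 32851 windows in the table, 3.17% held the forkhead, 6.75% the AP-1 and 6.91% the ETS letters. The window of Gzmb and 1 of the Tnfrsf9 windows, both among the 10 genes just named as highest, held the AP-1 letters, shown in capitals. They stand beside the first Foxp3 window, the gene that defines the cells, which held none of the 3 motifs. A match is a description of these letters only.
Gzmb, chr14:56262335-56262584, minus strand: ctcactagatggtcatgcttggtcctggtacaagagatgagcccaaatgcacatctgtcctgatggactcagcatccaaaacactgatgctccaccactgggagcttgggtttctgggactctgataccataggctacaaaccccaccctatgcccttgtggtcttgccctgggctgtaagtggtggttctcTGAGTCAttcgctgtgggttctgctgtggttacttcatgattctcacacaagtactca
Tnfrsf9, chr4:150927749-150927998, plus strand: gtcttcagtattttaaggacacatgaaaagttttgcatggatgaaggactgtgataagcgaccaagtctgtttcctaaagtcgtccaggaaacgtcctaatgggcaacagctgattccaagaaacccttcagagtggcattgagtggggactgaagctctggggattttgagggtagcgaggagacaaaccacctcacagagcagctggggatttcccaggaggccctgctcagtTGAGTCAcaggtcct
Foxp3, chrX:7579426-7579675, plus strand: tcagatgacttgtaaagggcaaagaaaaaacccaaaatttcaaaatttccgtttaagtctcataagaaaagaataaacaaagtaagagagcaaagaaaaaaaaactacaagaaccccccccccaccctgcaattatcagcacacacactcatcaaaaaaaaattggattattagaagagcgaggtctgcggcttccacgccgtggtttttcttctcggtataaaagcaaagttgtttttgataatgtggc

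The vancomycin and control libraries were compared within Tregs by their log2 ratio (vancomycin over control), with a pseudocount of 10 CPM. The series design implies the question whether the treatment changed cells of the nerve. A 2-fold difference was the limit for counting a gene, with no test. Of 10334 genes with 20 UMIs or more over both Treg sums, 1019 passed it upwards with vancomycin (9.86%) and 223 downwards (2.16%). Conventional CD4 T cells gave 7.71% upwards and 1.74% downwards, and CD8 T cells 6.11% and 1.46%. The median over these genes was 0.10. Many of these genes differed in the same direction in conventional CD4 T cells, which come from the same 2 libraries: 702 of the 1019 genes were also at least 2-fold higher there, 68.9% of the Treg and 76.6% of the conventional CD4 genes called higher. Of the 223 lower genes, 101 were also lower there, 45.3% of the Treg and 48.8% of the conventional CD4 genes called lower. After subtracting the log2 ratio in conventional CD4 T cells, 97 genes passed the limit upwards (0.944%) and 79 downwards (0.769%). Without the barcodes carrying markers of other cell types, 535 of 9321 measured genes were higher and 183 lower.

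Ctla4 was lower in vancomycin Tregs, by summed RNA and in the median cell. In conventional CD4 T cells the 2 measures went in opposite directions. The plain ratio of the sums was 0.538 (0.513 to 0.563) in Tregs and 0.918 (0.876 to 0.962) in conventional CD4 T cells. Its log2 ratio in Tregs was -0.89, and -0.68 without the barcodes carrying other markers. The median vancomycin Treg had 22.5 Ctla4 UMIs per 10000 UMIs and the median control Treg 32.2, while the median conventional CD4 T cell had 7.27 with vancomycin and 3.53 in the control. A Ctla4 UMI was found in 78.2% and 66.7% of conventional CD4 T cells, or 51.6% and 41.5% in thinned cells. Ctla4 was lower with vancomycin at each Foxp3 count, from 1845 against 2962 CPM in Tregs with 1 Foxp3 UMI to 1921 against 3876 CPM in those with 6 or more. Foxp3 counts are part of the rule and depth differed between these strata, with a median of 4971 UMIs against 7479 UMIs at 5 Foxp3 UMIs, so this is a description only.

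**Figure D4:**
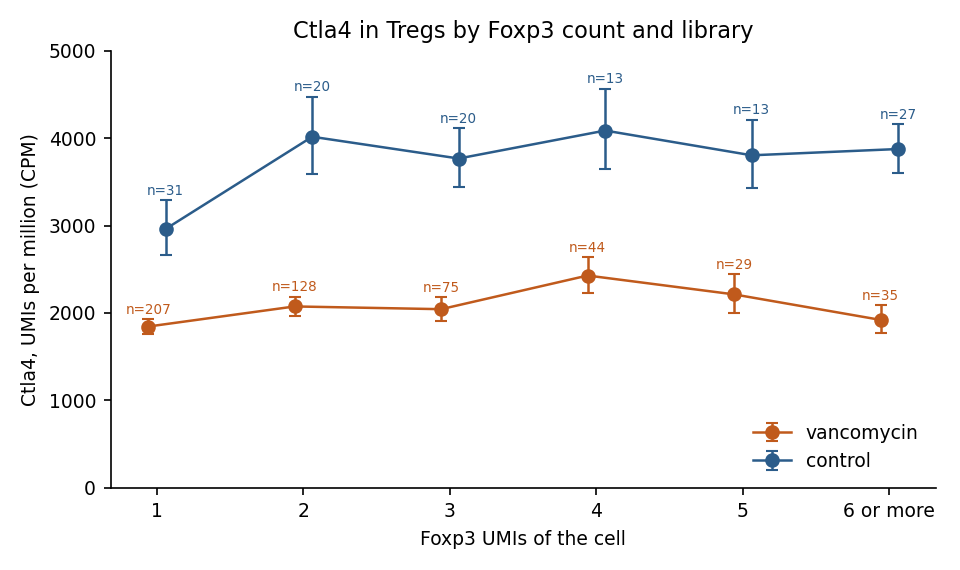
Ctla4 in CPM in Tregs with 1 to 5 and with 6 or more Foxp3 UMIs, in the vancomycin (orange) and control (blue) library. Points are sums over the n cells given, with 95% Poisson intervals for counting error. The vancomycin points lie between 1845 and 2429 CPM and the control points between 2962 and 4087 CPM.

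The other identity genes were mostly a little lower with vancomycin. Of 18 measured members, 0 passed the 2-fold limit upwards and 1, the costimulatory receptor gene Icos, downwards (9.86% and 2.16% of all measured genes). The interval of the plain ratio lay below 1 for 11 members and above 1 for 2, against 1621 and 2486 of all 10334 measured genes. The median log2 ratio was -0.20 in Tregs and 0.10 in conventional CD4 T cells, but 0.04 in Tregs without the barcodes carrying other markers. Icos was at 529 and 1147 CPM (log2 ratio -1.10), with -0.84 in conventional CD4 T cells. Il2ra had the same plain ratio, 0.536, in Tregs and in conventional CD4 T cells. Itgae was lower in Tregs, 0.619 (0.545 to 0.705), while conventional CD4 T cells gave 1.21 (0.95 to 1.54). Ikzf2 and Tnfrsf4 had log2 ratios of -0.16 and -0.17, which turned to 0.055 and 0.08 without the barcodes carrying other markers. Tnfrsf18, the GITR gene, and Izumo1r, the folate receptor 4 gene, were a little higher (0.17 and 0.35), though Izumo1r turned to -0.67 after subtracting its ratio in conventional CD4 T cells.

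**Figure D5:**
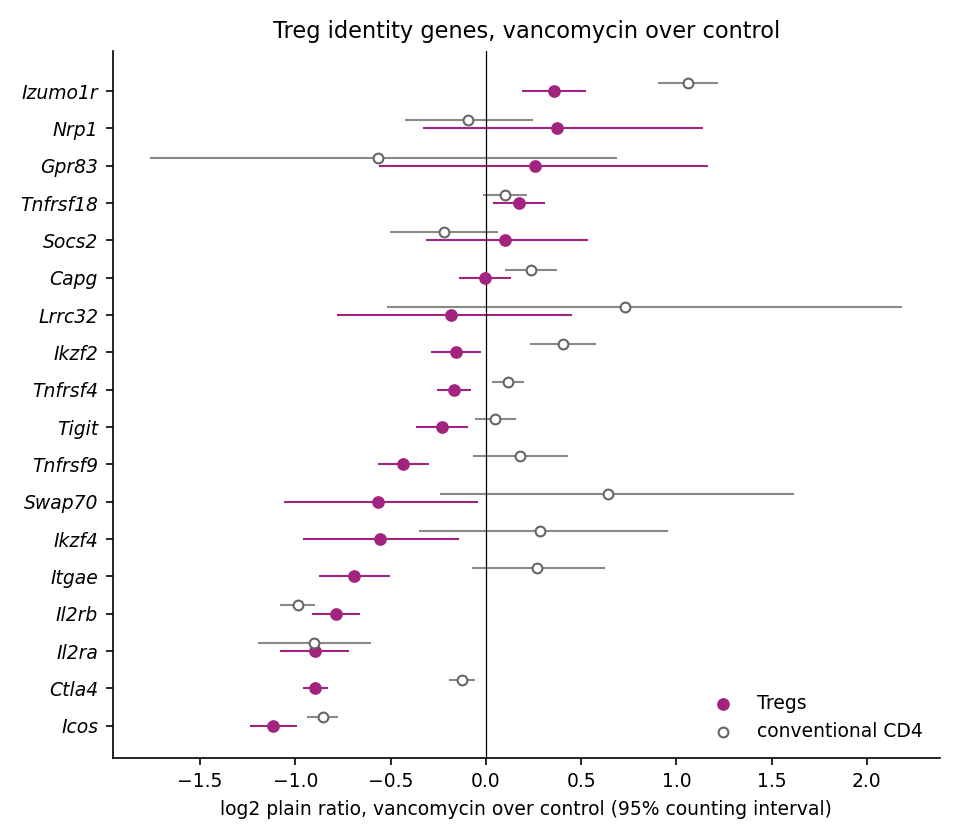
Log2 of the plain ratio of vancomycin over control for the 18 measured Treg identity genes, in Tregs (purple) and conventional CD4 T cells (open grey), with 95% counting intervals. Icos, Il2ra and Ctla4 lie lowest in Tregs. Ctla4 lies near 0 in conventional CD4 T cells, while Il2ra has the same ratio in both classes.

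Among genes of suppression, 20 were measured, 0 beyond 2-fold upwards and 2 downwards (9.86% and 2.16% of all measured genes). They had a median of -0.20 (-0.09 in conventional CD4 T cells). The 2 lower genes were Tgfb1 (208 and 970 CPM, log2 ratio -2.17) and Furin (-1.16), and conventional CD4 T cells gave -1.80 and -0.91 for them. Il10 was at 146 and 75.6 CPM, a plain ratio of 1.93 (1.44 to 2.61) against 1.59 (1.25 to 2.03) in conventional CD4 T cells, but its log2 ratio of 0.86 turned to -0.22 in thinned cells. A single vancomycin Treg held 37 of the 410 Il10 UMIs. Pdcd1, which encodes PD-1, was at 222 and 436 CPM, a plain ratio of 0.508 (0.443 to 0.585) against 0.894 (0.820 to 0.974) in conventional CD4 T cells. Gzmb and Entpd1 were near equal, with log2 ratios of 0.08 and 0.24. These turned to -0.78 for Gzmb with a Cd4 UMI required and -0.0068 for Entpd1 in thinned cells.

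Receptor, homing and signalling genes followed the same split between changes shared with conventional CD4 T cells and changes that were not. Over all measured genes 9.86% were at least 2-fold higher and 2.16% lower. The TGF-beta list had 0 of 16 genes at least 2-fold higher and 3 lower (Tgfb1, Skil and Furin). Skil, a TGF-beta target and feedback gene, was at -1.56 in Tregs and -1.59 in conventional CD4 T cells. In the homing list 0 of 22 were higher and 3 lower: Cxcr4 (-1.32), Itgb1 (-1.03) and S1pr1 (-1.91), with -0.83, -1.13 and -2.04 in conventional CD4 T cells. Ccr9 was at 122 and 57.0 CPM (0.98, against 0.37 in conventional CD4 T cells). The lymph node homing receptor gene Ccr7 was at 179 and 409 CPM (-1.15), while conventional CD4 T cells gave 0.28. In the IL-2 list Stat5a, which carries the IL-2 signal, was lower (59.3 and 155 CPM, -1.26), and its inhibitor Socs1 was higher (176 and 65.6 CPM, 1.30). Conventional CD4 T cells gave -0.34 and 0.93.

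Genes induced by T cell receptor signals moved in both directions. Of 21 measured, 4 were at least 2-fold higher (Jun, Fos, Myc and Irf8) and 5 lower, Nr4a2 and Nr4a3 among them. The shares over all measured genes were 9.86% and 2.16%. Myc, a growth regulator, was at 89.8 and 25.7 CPM (log2 ratio 1.48), with -0.05 in conventional CD4 T cells. Only 18 Myc UMIs in 8 cells stand behind the control Treg value, and 83.3% of them came from 5 cells. Irf8, a transcription factor gene, was at 175 and 41.4 CPM, a plain ratio of 4.24 (2.92 to 6.4) against 2.51 (1.85 to 3.45) in conventional CD4 T cells. Fos was at 255 and 95.6 CPM (1.33, against 0.54). Nr4a3 was at 110 and 476 CPM, and its ratio was alike in Tregs (-2.01) and conventional CD4 T cells (-2.00).

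Proliferation genes stood higher in the summed RNA of vancomycin Tregs. Of 17 measured, 9 passed the 2-fold limit upwards and 0 downwards (9.86% and 2.16% of all measured genes). Their median was 1.02 (0.29 in conventional CD4 T cells) and 1.11 without the barcodes carrying other markers. Mki67, a marker of cycling cells, was at 119 and 44.2 CPM (log2 ratio 1.25). Conventional CD4 T cells gave -0.52, a value that rests on few cells, since 78.4% of their 283 control Mki67 UMIs came from 5 cells. The share of Tregs with an Mki67 UMI was 10.8% (56 of 518) and 10.5% (13 of 124). Only 31 Mki67 UMIs stand behind the control value. With a CD3 sum of 1 allowed, which adds 2 control Tregs, the log2 ratio was 0.83. Birc5, which encodes the mitotic protein survivin, had 172 UMIs in 25 of 518 and 3 UMIs in 3 of 124 Tregs, a ratio of 14.3 (4.80 to 69.9). Of the vancomycin Birc5 UMIs 40.7% came from 5 cells, and the interval covers counting error only. In conventional CD4 T cells a Birc5 UMI was in 2.94% and 1.79%. Top2a, the topoisomerase of dividing cells, was at 137 and 62.8 CPM (1.02), while a Top2a UMI was found in 12.9% and 14.5% of Tregs. The replication licensing gene Mcm6 went the other way, at 132 and 238 CPM (-0.80).

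The chemokine gene Ccl4 was at 515 and 24.2 CPM in vancomycin and control Tregs, a ratio of 21.2 (13.2 to 36.6) against 6.07 (5.01 to 7.42) in conventional CD4 T cells. Its UMIs were in 93 of 518 and 15 of 124 Tregs, and 51.6% of the vancomycin UMIs came from 5 cells. Ccl4 was also in 40.3% and 50.8% of Csf1r-positive barcodes, so free RNA can add to it, and that part was not tested. Its close relative Ccl3 was at 47.2 and 7.13 CPM. The gene list that holds Ccl3 and Ccl4 had 7 measured members. Ccl1, Ccl3, Ccl4 and Mdk passed the 2-fold limit upwards, and 0 members passed it downwards. Mdk is a growth factor gene and not a chemokine gene. The shares over all measured genes were 9.86% and 2.16%. Without the barcodes carrying other markers, 3 of 7 members passed that limit upwards.

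The highest ratios in Tregs were led by genes that other cells also gained in the vancomycin library. With markers of non-T cells left out and at least 100 CPM in the higher library, the 10 highest were Cmss1, Heph, Apod, Tubb4a, Trf, Pcdh9, Klk6, Gm19951, Aplp1 and Car2. Heph had 3193 UMIs against 0, at least 265-fold higher with a floor of 3 counts over the control Tregs. Several are known from oligodendrocytes: Apod, Tubb4a, Trf, Klk6, Aplp1 and Car2. Without the barcodes carrying other markers the log2 ratio of Apod went from 6.75 to 1.63, that of Trf from 5.86 to 0.45 and that of Klk6 from 5.30 to 0.65, while those of Cmss1, Heph and Gm19951 were 8.85, 7.02 and 5.38. Cmss1 was at 7195 and 7.13 CPM in Tregs and at 8550 and 10.5 CPM in conventional CD4 T cells. Under the same limits the 10 lowest were Fam177a, Ftl1, Tgfb1, Nr4a3, Nsa2, Tinf2, Lars2, Rgs1, Rgs16 and Vps37b. Ftl1, the ferritin light chain gene, was at 135 and 1091 CPM (-2.93), with -2.73 in conventional CD4 T cells.

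After subtraction of the conventional CD4 ratio, the 5 highest genes were Sparcl1, Hist1h2ap, Hist1h1b, AI506816 and Tnr. The 5 lowest were Il1b, Ndrg1, Ptgds, Cxcl13 and Dusp14. Most rest on few cells or few UMIs. In Tregs alone, Hist1h2ap was lower with vancomycin (log2 ratio -0.98), and 90.5% of its 441 control UMIs in conventional CD4 T cells came from 5 cells. Ndrg1 (1.18), Ptgds (3.44) and Cxcl13 (0.32) were higher in vancomycin Tregs before the subtraction. Sparcl1 and Tnr, genes of glial cells, had 136 and 107 UMIs in vancomycin and 0 in control Tregs. The histone gene Hist1h1b had 185 UMIs in 28 cells and 7 UMIs in 7 cells, and all 67 control Il1b UMIs came from 1 cell. Dusp14, a phosphatase gene, was at 44.0 and 103 CPM (-1.06), with 0.56 in conventional CD4 T cells.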

How the data were processed

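The authors deposited raw UMI counts per gene and barcode, made with Cell Ranger 7.2.0 (vancomycin) and 6.0.1 (control), per the file headers, on mm10, with Partek also named, per the submitters' processing notes. Intron counting and cell calling are not given in the sources used here. Tregs, conventional CD4 and CD8 T cells were gated on raw counts. UMIs were summed per class and library and scaled to CPM. Ratios of vancomycin over control took genes with at least 20 UMIs, a pseudocount of 10 CPM and exact conditional Poisson 95% intervals, with no test. Tregs and conventional CD4 T cells were tested with edgeR 4.0.16 (TMM, genes with at least 10 UMIs in at least 2 sums), with library as a block because both classes come from the same pool of mice. DESeq2 1.42.0 was an alternative. The ratio and the test were checked on simulated counts, drawn independently for each sum. These had no library effect and no clustering of UMIs in single cells, so the check does not cover either. Doublets were scored with Scrublet in scanpy 1.11.5 and kept, and a score of 0.2 or more was found in 22 vancomycin and 0 control Tregs.

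Members and gene lists were chosen with earlier results of these data known. The lists share members, so the same call can be counted in several lists. Genes were named as the 5 markers, the 10 highest and lowest of each comparison, the 5 highest and lowest after subtracting the conventional CD4 ratio, and of each list up to 4 by level and 4 by size of change, or all members for suppression, tissue, gut-linked and IL-2 genes. Tgfbr1, Tgfbr2, Fos, Jun, Izumo1r, Mki67 and Top2a were chosen after their values were seen. Names required at least 50 CPM in the higher class in both libraries for the test and at least 100 CPM in the higher library for the 10 highest and lowest ratios. Rule genes, receptor segments, ribosomal, mitochondrial, haemoglobin and sex-linked genes and markers of non-T cells were left out of these ranks. Gene positions were found for 32158 of 32285 identifiers (GENCODE M21).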

Additional observations from a re-analysis of the deposited data

Results flagged for a closer look

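Some genes were above conventional CD4 T cells in the Tregs of 1 library and below in those of the other. None of these differences between libraries was tested. Given as the plain ratio of Tregs over conventional CD4 T cells, in the vancomycin and then the control library, Sparcl1 stood at 1.38 and 0, Hist1h2ap at 1.79 and 0.183, Hist1h1b at 1.88 and 0.199, and AI506816 at 1.39 and 0.187. The opposite held for Il1b (0.461 and 2.48), Dusp14 (0.527 and 1.93), Pdcd1 (0.797 and 1.40) and Hif1a (0.928 and 1.18).

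Foxp3 was also found outside the rule. In the vancomycin library, 101 gated T cells held Foxp3 and a CD8 UMI, with a median of 7991 UMIs and Ctla4 at 1472 CPM. In the control library, 43 such cells had a median of 8349 UMIs and Ctla4 at 2656 CPM. A further 44 vancomycin barcodes held Foxp3 with no CD3 UMI, at a median of 9906.5 UMIs and Ctla4 at 1.89 CPM, against 3 in the control.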

How the results depend on the processing

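The Treg share of T cells stayed higher with vancomycin in each setting run. It went from 12.96% and 6.85% to 7.78% and 5.14% with 2 Foxp3 UMIs, to 6.91% and 4.64% with a Cd4 UMI and to 7.09% and 3.64% in thinned cells. Tregs per conventional CD4 T cell went from 0.492 and 0.247 to 0.295 and 0.185 and to 0.262 and 0.167 under the first 2 of these. Genes at least 2-fold higher with vancomycin went from 1019 to 290 in thinned cells, 535 without barcodes carrying other markers (chosen after seeing the data), 2056 and 191 with a pseudocount of 1 and 50 CPM, 487 with at least 100 UMIs, 616 with cells weighted equally and 97 after subtracting the conventional CD4 ratio. Genes lower went from 223 to 462 and 68 with the pseudocounts and 79 after the subtraction. These counts have different totals. Genes measured were 10334 under the rule as given, 2484 in thinned cells and 9321 without barcodes carrying other markers. With at least 100 UMIs they were 5494, and after the subtraction 10271. In the test of Tregs against conventional CD4 T cells, 140 higher and 177 lower became 375 and 447 with no filter, 421 and 441 with only the Treg and conventional CD4 sums, and 290 and 371 without barcodes carrying other markers, and the higher genes were 89 in thinned cells. Genes tested were 13013 in the main fit, 7093 in thinned cells and 21296 with no filter. They were 11626 with only the Treg and conventional CD4 sums and 11892 without barcodes carrying other markers. The libraries pair the classes, and with no replicate block the calls were 0 and 0. No paired analysis was possible because each group of the vancomycin comparison is 1 library. The cause was not tested for any of these.

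Single genes changed sign as follows. After the conventional CD4 subtraction, log2 ratios were Fasl 0.094, Heph -0.18, Apod -0.72, Tubb4a -0.022, Trf -0.74, Klk6 -0.89, Gm19951 -0.14, Nsa2 0.18, Tinf2 0.25, Rgs1 0.14, Vps37b 0.28, Ndrg1 -1.87, Ptgds -1.86, Rora 0.22, S1pr1 0.13, Tnfrsf1b 0.43, Skil 0.025 and Itgb1 0.095. In thinned cells Ndrg1 was -2.21 and Ptgds -0.35, and without barcodes carrying other markers Ndrg1 was -1.34 and Il1b 0.067. For Tregs over conventional CD4, Klk6 was 2.50 and Mcm6 -0.20 in thinned cells. With either library left out, Klk6 ranged from -0.89 to 0 and Cxcl13 from -1.58 to 0.081, the higher end without the vancomycin library. These are genes at least 2-fold from 1, or past the edgeR threshold. That limit was set after the output was seen. Of 65 other genes given, with ratios under 2-fold, 44 changed sign in at least 1 setting, 31 of them outside the subtraction, and the interval of the plain ratio left out 1 for 22 and 11 of these.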

Other observations

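Oxidative phosphorylation genes were a little higher in vancomycin Tregs: 12 of 18 had an interval of the plain ratio above 1 and 1 below it, against 2486 and 1621 of all 10334 measured genes, with a median log2 ratio of 0.34, and 0.30 in both conventional CD4 and CD8 T cells. Interferon response genes had a median of 0.20 over 16 measured (-0.03 in conventional CD4 T cells), with 0 at least 2-fold in either direction. MHC class I genes had a median of -0.19 over 13, 1 of them at least 2-fold lower.

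Genes at least 2-fold higher with vancomycin in Tregs made up 9.0% of short genes (median span 6.87 kb), 6.07% of middle genes (24.6 kb) and 14.5% of long genes (85.3 kb), with genes split into 3 groups of equal number by span.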
